A study of Rattus norvegicus with 6 samples.

Results

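The PDZ-LIM proteins are a family of 7 genes in the rat: Pdlim1, Pdlim2, Pdlim3, Pdlim4, Pdlim5, Pdlim7 and Ldb3. They were picked by symbol, with the difference of Pdlim4 between the treated and control arrays already known, so the members' differences between groups are described with no test. Every non-control probe whose RefSeq accession maps to one of these symbols was taken. This gave 12 of 61657 probes, for 6 of the 7 genes, and none was matched to Ldb3. Liver RNA of 6 male Sprague-Dawley rats, bought at 5 weeks of age and kept on a basal diet, was hybridised to one-colour Agilent arrays, 1 array per animal. The 3 NTA rats were given nitrilotriacetic acid trisodium monohydrate, a chelator of metal ions, at 1000 mg/kg/day, and the 3 control rats were given vehicle. The sample labels name water as the vehicle where the treatment protocol names corn oil, and the design text puts sampling at 28 days where the protocol puts dosing at 9 weeks. The labels name no genetic change, and the age at sampling is not given in the sources used here.

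PDZ-LIM proteins are adaptors of the actin cytoskeleton. Their PDZ domain binds the tails of partners such as alpha-actinin, the protein that cross-links actin filaments, and their LIM domains, folded around zinc ions, bind kinases and other signalling proteins. Pdlim1 to Pdlim4 form the ALP group, with a single LIM domain, while Pdlim5, Pdlim7 and Ldb3 form the Enigma group, with several. The muscle members sit at the Z-disc, and others lie on stress fibres in non-muscle cells. In a liver these can be hepatocytes or the stellate, endothelial, smooth muscle and immune cells around them. In RNA from whole liver, more cells of a type and more RNA per cell cannot be told apart.

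RefSeq promoter windows were at hand for 5 of the members, in the build GRCr8, and 2 stretches upstream of the gene are shown to set the member with the largest difference, Pdlim4, beside one of those that differed by less than the spread between rats, Pdlim1. Each runs 5′ to 3′ on the strand of the gene, and capitals mark the GC box, GGGCGG on either strand, a motif bound by Sp factors. The Pdlim4 stretch is chr10:38713697-38713909 on the minus strand, and the Pdlim1 stretch is chr1:249040410-249040659 on the minus strand.
Pdlim4: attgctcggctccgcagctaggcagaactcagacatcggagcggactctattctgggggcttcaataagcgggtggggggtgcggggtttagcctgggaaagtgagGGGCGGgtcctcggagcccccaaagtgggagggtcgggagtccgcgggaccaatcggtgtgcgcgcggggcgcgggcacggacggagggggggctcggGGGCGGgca
Pdlim1: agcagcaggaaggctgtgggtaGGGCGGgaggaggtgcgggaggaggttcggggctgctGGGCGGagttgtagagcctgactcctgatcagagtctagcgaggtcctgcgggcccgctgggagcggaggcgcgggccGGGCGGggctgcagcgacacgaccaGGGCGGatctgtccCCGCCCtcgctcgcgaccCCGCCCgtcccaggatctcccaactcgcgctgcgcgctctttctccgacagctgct

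Both promoters are GC-rich. Over the whole 300-base window, from 250 bases before to 50 after the start, 73.7% of bases were G or C in Pdlim4 and 71.0% in Pdlim1, against a median of 51.7% over 33469 rat promoters. The windows held 5 GC boxes in Pdlim4 and 6 in Pdlim1, 2 each in Pdlim5 and Pdlim7 and 0 in Ldb3, and 33.1% of all promoters held at least 1. The Pdlim4 stretch shown stops where the annotated gene span begins and holds 2 of the 5 boxes, while the Pdlim1 stretch holds all 6. Bases upstream of the annotated span numbered 144 in the Pdlim5 window, 45 in that of Pdlim7 and 0 in that of Ldb3. Other motifs were searched on both strands. The core of the antioxidant response element, TGACNNNGC, present in 12.1% of promoters, had 2 matches in Pdlim7, 1 in Ldb3 and 0 in Pdlim4, Pdlim1 and Pdlim5. The core of the metal response element, TGCACNC or TGCGCNC, present in 24.2% of promoters, had 1 match in Pdlim4, 2 in Pdlim1, 1 in Pdlim7, 2 in Ldb3 and 0 in Pdlim5. The CArG box of serum response factor, in 1.64% of promoters, matched once in Ldb3 and in none of the other windows. A match is a description of the letters only.

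Pdlim4 was higher in the liver of every NTA rat than in that of any vehicle rat. Pdlim4, first known as RIL, binds alpha-actinin and lies on actin stress fibres. Its only probe was well above background on all 6 arrays. This probe names 1 of 5 RefSeq transcripts of Pdlim4, so splice forms are not resolved. The background-subtracted signal was 59.1, 29.1 and 60.9 scanner units in vehicle replicates 1, 2 and 3, and 193, 219 and 231 in NTA replicates 1, 2 and 3. The means were 49.7 ± 17.9 (SD, n = 3) with vehicle and 214 ± 19.7 (SD, n = 3) with NTA. Vehicle replicate 2 was the lowest array, and the 3 NTA arrays lay close together.

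**Figure D1:**
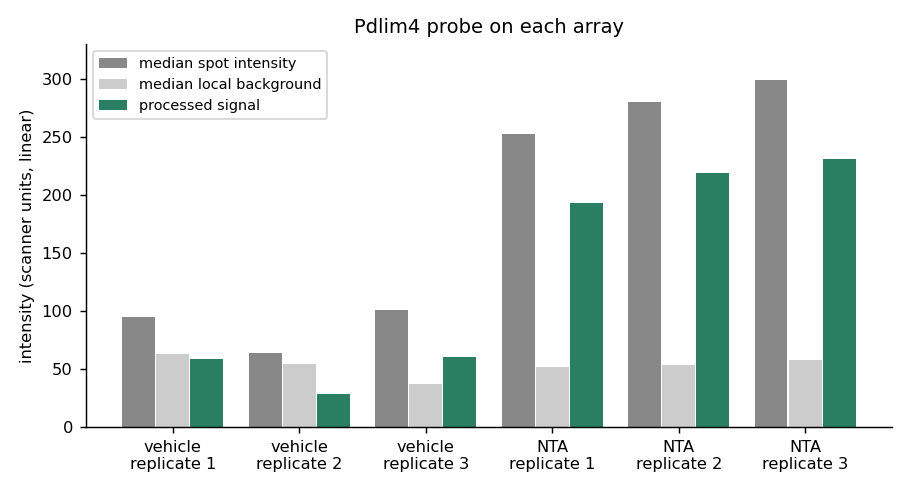
Median spot intensity, median local background and processed signal of the Pdlim4 probe (linear scanner units) on each of 6 arrays, 1 rat each. The processed signal is 29.1 to 60.9 on the vehicle arrays and 193 to 231 on the NTA arrays, while the local background is 37 to 63 on all of them.

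On the vehicle arrays the Pdlim4 spot was not far from its surroundings. The median spot intensity over the median local background was 1.51, 1.16 and 2.73 in vehicle replicates 1, 2 and 3, and 4.86, 5.19 and 5.16 in the NTA replicates. In vehicle replicate 2 these intensities were 64 and 55, while the background-subtracted signal was 29.1. That signal is thus not the median spot minus the median local background. The groups were separated in the unprocessed median spot intensities too.

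From here on, levels are log2 of the processed signal over the array's 75th percentile, so that a level of 0 equals that percentile, and differences are NTA minus vehicle on this log2 scale. Pdlim4 was at a level of −3.13, −4.00 and −3.11 in vehicle replicates 1, 2 and 3 and at −1.44, −1.24 and −1.27 in the NTA replicates. The group means were −3.41 ± 0.50 and −1.32 ± 0.11 (SD, n = 3 each), a difference of 2.10 (SE 0.25 from limma), or 4.28-fold. The nearest pair of rats from opposite groups differed by 1.67 and the farthest by 2.76. The NTA levels spanned 0.20 and the vehicle levels 0.88. By size of increase the probe stood at place 34 among the 38168 probes past the filter on dim spots, whose median difference was −0.02, with quartiles at −0.14 and 0.11.

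Among the alternatives the Pdlim4 difference was smallest with normexp and next smallest, at 1.81, without vehicle replicate 2. With normexp, a model-based background correction that here also started from the spot medians and added an offset of 50, it was 1.28, or 2.43-fold, in place of 2.10; which of these changes moved it was not tested. It was above 0 in all 15 alternatives run, of which 14 are distinct, since scan day as a block amounts to leaving out vehicle replicate 3. Dropping the filter, taking the brightest probe per gene, other variance settings and the balanced replicate block cannot change the difference itself. Since the groups did not overlap, leaving out an array could not bring it below 0 either. Over the whole table, limma with Benjamini-Hochberg adjustment at a threshold of 0.05 called 13 of 38168 probes, or 0.0341%, all 13 of them higher with NTA. Of the 11 PDZ-LIM probes past the filter 0 were among them, with 1 higher (Pdlim4) and 1 lower (a Pdlim7 probe) at an unadjusted p under 0.05, against 3.65% and 3.73% of all probes. Pdlim4 passed the adjusted threshold in 2 of the 15 alternatives, normexp and the fit without vehicle replicate 2. Since Pdlim4 was chosen on this contrast, these calls are given as a description.

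**Figure D2:**
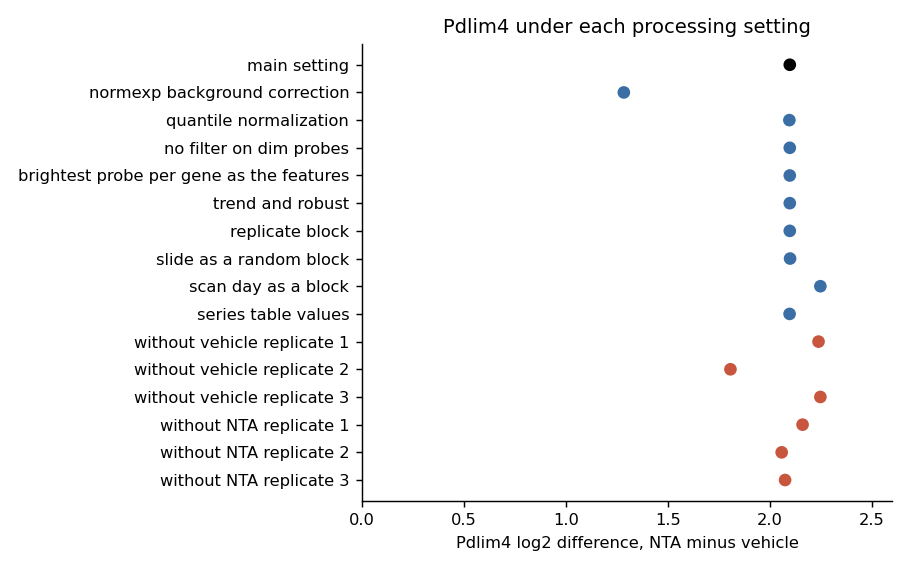
Pdlim4 log2 difference, NTA minus vehicle, under the main setting (black), 9 other processing settings (blue) and with each of 6 arrays left out in turn (red). The points lie between 1.81 and 2.25 except normexp at 1.28.

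No probe of another member was higher with NTA in every rat. Of the 11 probes past the filter, 2 had a difference above 0 and 9 below 0, with a median of −0.12. The groups did not overlap for 1 probe higher with NTA, that of Pdlim4, and for 1 lower, of Pdlim7. Over all probes tested, 5.54% were separated with NTA higher and 7.83% with NTA lower, and 44.2% had a difference above 0. A probe separated and at least 2-fold higher, as Pdlim4 was, was found for 0.485% of probes. The 9 probes of other members that were well above background on all arrays had differences between −0.31 and 0.29, and between −0.20 and 0.11 with normexp.

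**Figure D3:**
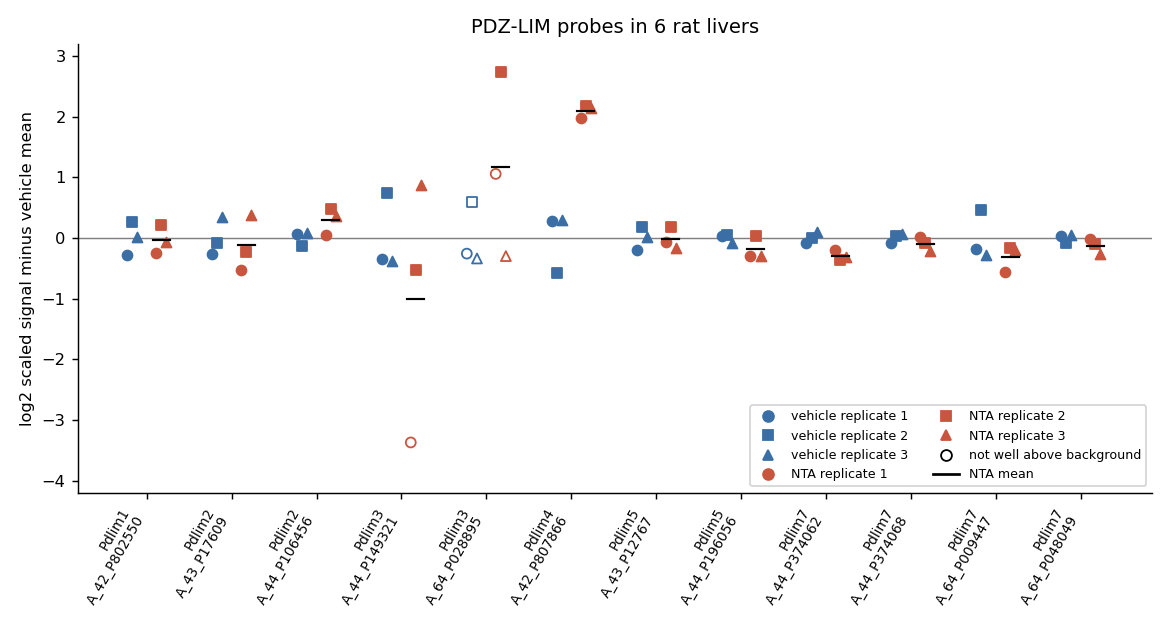
Level of each of the 12 PDZ-LIM probes on each array, minus that probe's vehicle mean (log2), with vehicle rats in blue, NTA rats in red, the NTA mean as a bar and open symbols where the spot was not well above background. The NTA rats lie apart from the vehicle rats by 1.67 or more for Pdlim4, while most other probes scatter around 0 and those of Pdlim3 scatter widely.

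Within the ALP group, Pdlim1, also called CLP36 and like Pdlim4 a partner of alpha-actinin, was measured by a single probe. Its level was 3.13, 3.68 and 3.43 in vehicle replicates 1, 2 and 3 and 3.16, 3.62 and 3.34 in NTA replicates 1, 2 and 3. The groups overlapped, with means of 3.41 ± 0.27 and 3.38 ± 0.23 (SD, n = 3 each) and a difference of −0.03 (SE 0.18). Rats of the same group differed by up to 0.54, far more than the groups did.

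Pdlim2, which in immune cells guides the NF-kappa-B subunit Rela and Stat4 to breakdown in the nucleus, had 2 probes, whose small differences had opposite signs. The brighter probe was at −1.58, −1.78 and −1.57 with vehicle and at a level of −1.60, −1.17 and −1.29 with NTA. NTA replicate 1 fell among the vehicle rats, so the groups overlapped, and the difference was 0.29 (SE 0.15), or 0.11 with normexp. The dimmer probe ran from −3.87 to −3.25 with vehicle and from −4.13 to −3.23 with NTA, a difference of −0.12 (SE 0.27). It was near background, with a median spot 1.05 to 2.25 times the local background, and its sign changed with 1 array left out. Both probes name the same accession, 1 of 7 Pdlim2 transcripts in the gene table.

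Pdlim3, the ALP protein of the muscle Z-disc, was too dim in these livers for a steady value. Its brighter probe was at −4.58, −3.49 and −4.61 with vehicle and at −7.60, −4.76 and −3.36 with NTA. The lowest of these, NTA replicate 1, was not well above background. In vehicle replicate 1 the spot counted as well above background although its median, 52, was below the median local background of 59. The difference of −1.01 (SE 1.02) was no larger than its error, and it was −0.15 with normexp. This probe passed the filter through the vehicle arrays alone. The other Pdlim3 probe was well above background on 1 of 6 arrays, NTA replicate 2, and failed the filter.

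In the Enigma group, Pdlim5 (ENH), a scaffold that tethers protein kinase C to the cytoskeleton, hardly differed. Its brighter probe was at 1.57, 1.95 and 1.77 with vehicle and at 1.70, 1.94 and 1.60 with NTA, with means of 1.76 ± 0.19 and 1.75 ± 0.17 (SD, n = 3 each). The difference was −0.02 (SE 0.15) and the groups overlapped. The second probe gave −0.19 (SE 0.13), with levels from −2.86 to −2.72 with vehicle and from −3.07 to −2.75 with NTA. Both probes name 1 accession, while the gene table lists 24 Pdlim5 transcripts, so splice forms are not resolved.

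Pdlim7 (Enigma), which binds tropomyosin and the tails of the receptors Ret and Insr, had 4 probes, all slightly lower with NTA. The brightest was at 1.47, 1.37 and 1.49 with vehicle and at 1.43, 1.34 and 1.18 with NTA, a difference of −0.12 (SE 0.11) with overlapping groups. The next, A_44_P374062, was at −2.30, −2.21 and −2.12 with vehicle and at −2.41, −2.57 and −2.52 with NTA. Here the 3 NTA rats lay below all vehicle rats, by a gap of 0.12 between the nearest pair, and the difference was −0.29 (SE 0.11). The remaining 2 probes overlapped, with differences of −0.10 (SE 0.11) and −0.31 (SE 0.22). The latter probe was near background, with a median spot 1.06 to 2.08 times the local background. Its difference was −0.08 without vehicle replicate 2. The 4 probes share an accession and the same 6 RNA samples, so they are not independent.

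Members were also compared with each other from rat to rat, and Pdlim1 and Pdlim5 are given as the pair with the highest r. Over the 6 rats their brightest probes gave Pearson's r = 0.90 (exact permutation p = 0.024, two-sided) and Spearman's rho = 0.94 (exact permutation p = 0.017). Adjusted by Benjamini-Hochberg over the 10 pairs of the 5 genes measured on all arrays, these exact permutation p-values were 0.24 and 0.17, so the relation did not pass. With each group centred on its mean r was 0.90, and without vehicle replicates 1 and 2, the rats farthest from the Pdlim1 median, it was 0.77. Of the 6 rats, all but vehicle replicate 3 shared a slide and a scan day with others. The next highest r over the 6 rats was 0.80, for Pdlim2 with Pdlim4, and it was 0.65 with each group centred. Pdlim4 was chosen on its difference between the groups, which enters the first of these values, so no p-value is given for this pair.

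The genes outside the family whose levels followed Pdlim4 most closely were sought among 1533 named genes that were well above background on all arrays and had a range of at least 1 log2 unit. Over the 6 arrays Cd93, a receptor of endothelial cells, had r = 0.99 with Pdlim4, the amino acid transporter Slc36a4 0.98, and Pla2g7, the enzyme that breaks down platelet-activating factor, 0.97. The kinetochore protein Dsn1, the retinoic acid hydroxylase Cyp26a1 and the ion pump regulator Fxyd6 each had r = 0.97. All 6 were higher in the 3 NTA rats than in the vehicle rats, with differences from 0.67 for Slc36a4 to 2.03 for Pla2g7. Vehicle replicate 2 was the lowest of the vehicle rats for each of them, as for Pdlim4. Both traits follow largely from the choice of genes by their r with Pdlim4. With each group centred on its mean, r ran from 0.55 for Fxyd6 to 0.97 for Dsn1. These likenesses are descriptions over 6 arrays that fall in 2 groups. The Slc36a4 and Dsn1 probes are dim, and with normexp their differences were 0.02 and 0.29 in place of 0.67 and 1.15.

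**Figure D4:**
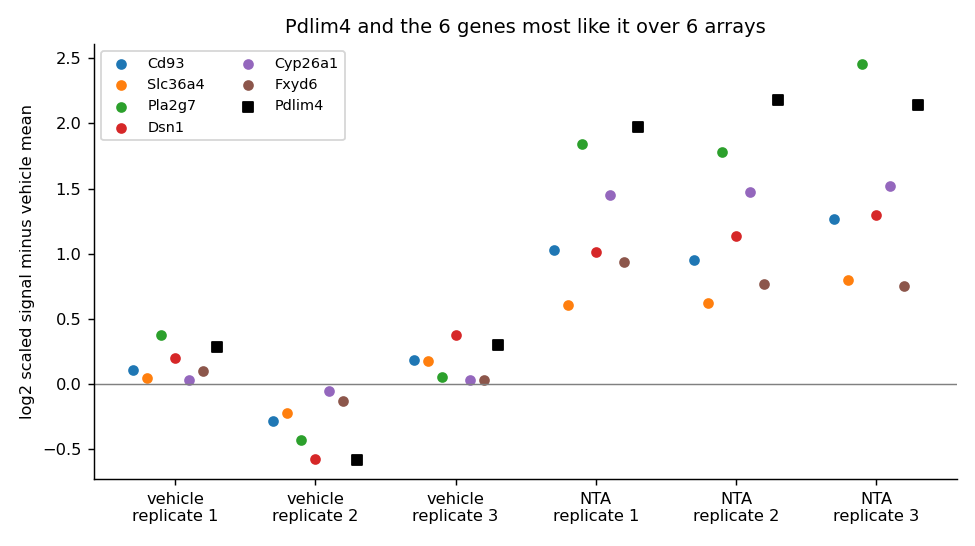
Levels of Pdlim4 (black squares) and of the 6 named genes with the highest Pearson r to it over the 6 arrays, each minus its own vehicle mean (log2). All 7 are lowest in vehicle replicate 2 and lie higher in the 3 NTA rats than in the 3 vehicle rats.

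No other LIM-domain protein on the list passed in limma. Of 40 listed genes outside the family, such as zyxin, the paxillin relatives and the Fhl proteins, 33 had a probe and 30 passed the filter. Their median difference was 0.02, with 16 above 0 and 14 below, against a median of −0.01 over all 11251 named genes. In limma 0 passed after Benjamini-Hochberg adjustment, and 3 were higher and 0 lower at an unadjusted p under 0.05, where 4.5% of all named genes were higher and 3.08% lower. These were the muscle and stress-sensing Fhl1 at 0.61 (SE 0.22), the junction protein Ajuba at 0.42 (SE 0.16) and Lmo2, a cofactor of blood and endothelial transcription, at 0.50 (SE 0.21). The other 2 Fhl1 probes gave −0.03 and 0.24, and the other Ajuba probe gave 0.35. Zyx, which lies in focal adhesions, was at −0.23 (SE 0.15), the actin-bundling Csrp1 at −0.32 (SE 0.20), Fhl2 at −0.24 (SE 0.28) and Lmo7, itself a PDZ and LIM protein, at 0.21 (SE 0.18). Limma adjusted p over the list ran from 0.637 to 0.998.

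No listed partner of the PDZ-LIM proteins passed either. Of 24 listed, 20 had a probe and 15 passed the filter, with a median difference of 0.04, 9 above 0 and 6 below. In limma 0 passed after Benjamini-Hochberg adjustment, and at an unadjusted p under 0.05 there were 1 higher and 3 lower of 15, beside the 4.5% and 3.08% over all named genes. Those with the smallest p were the tyrosine kinase Src at −0.36 (SE 0.11), the Z-disc protein Myoz1 at −0.36 (SE 0.11) and Id2, an inhibitor of helix-loop-helix factors held in the cytoplasm by Pdlim5, at −0.44 (SE 0.16). The 1 higher gene, named after its values were seen, was the transcription factor Stat4 at 1.07 (SE 0.44), which was well above background on 2 of the 3 vehicle arrays and so passed the filter through the NTA group alone. The limma adjusted p values of Src, Myoz1 and Id2 were 0.556, 0.556 and 0.633, and the other probes of Src and Id2 gave −0.33 and −0.21. The alpha-actinins, the shared ligand of the family, had differences of 0.38 (SE 0.16) for Actn1 and 0.03 (SE 0.09) for Actn4. The other 2 Actn1 probes gave 0.01 and 0.17.

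The actin cytoskeleton and the targets of serum response factor, which drives many actin genes, were spread to both sides of 0. Of 36 listed genes 33 had a probe and 30 passed the filter, with a median difference of −0.04, 14 above 0 and 16 below. In limma 0 passed after Benjamini-Hochberg adjustment, and at an unadjusted p under 0.05 there were 1 higher and 1 lower of 30, beside the same 4.5% and 3.08%. The smallest p values belonged to the actin cross-linker filamin A (Flna) at 0.38 (SE 0.12), the skeletal muscle actin Acta1 at −0.90 (SE 0.37) and Tagln2 at 0.28 (SE 0.13). Acta1 was well above background on 2 of the 3 NTA arrays and passed the filter through the vehicle group alone, where its mean was higher. Cytoplasmic actin Actb was at −0.18 (SE 0.28), smooth muscle actin Acta2 at −0.17 (SE 0.11), Tagln at −0.08 (SE 0.22) and Srf at 0.07 (SE 0.12).

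**Figure D5:**
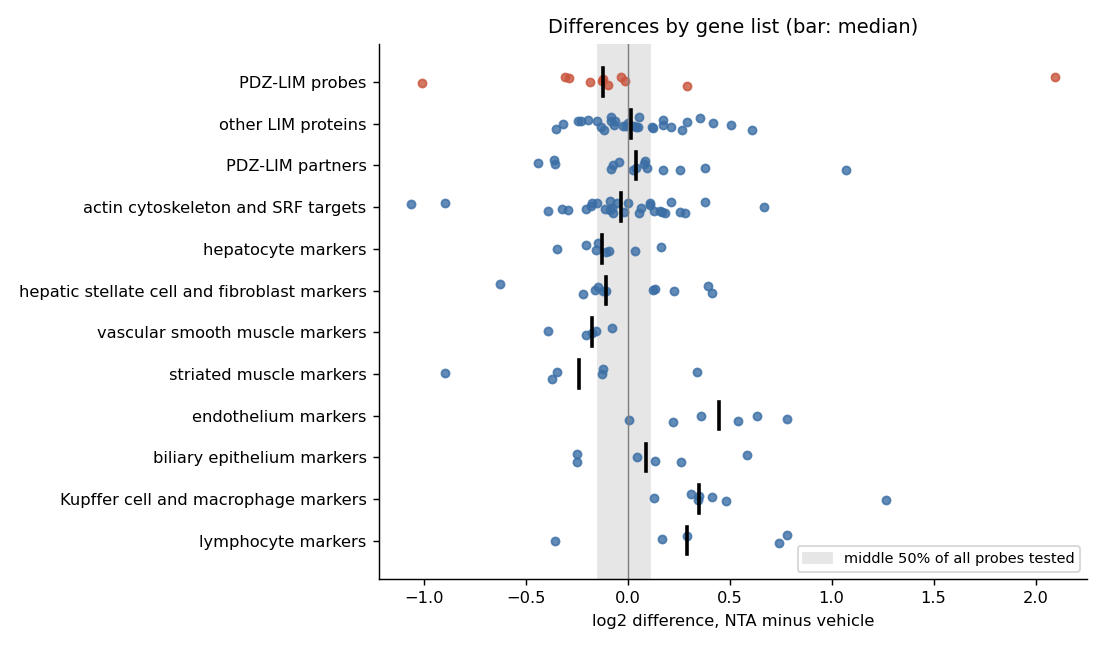
Log2 difference, NTA minus vehicle, of the 11 PDZ-LIM probes past the filter (red) and of each listed gene's brightest probe (blue), with the median of each list as a bar and the span between the quartiles of all probes shaded. Pdlim4 at 2.10 lies to the right of every listed gene, and the medians of the LIM, partner and actin lists lie within 0.04 of 0.

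Markers of cell types that could carry PDZ-LIM transcripts were read beside these values. Hepatocyte markers were abundant, with 8 of 8 past the filter and a median difference of −0.13. Vascular smooth muscle markers had a median of −0.17 over 5 of 7 genes, all 5 below 0, and Cnn1 and Lmod1 were not well above background on any array. Stellate cell and fibroblast markers had a median of −0.11 over 11 of 12 genes. Striated muscle markers had a median of −0.24 over 6 of 10, and Myh4 was not well above background on any array.

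Of the 8 endothelial markers, 6 passed the filter, and all 6 had a difference above 0, with a median of 0.45. In limma 0 of the 6 passed after adjustment, and 4 were higher at an unadjusted p under 0.05, against 4.5% of all named genes. These, named after their values were seen, were the receptor kinase Tie1, the hyaluronan receptor Lyve1, Emcn and the junction protein Pecam1, at 0.63, 0.54, 0.78 and 0.36, and the other Pecam1 probe gave 0.06. The remaining markers, the growth factor receptor Kdr and the cadherin Cdh5, were at 0.22 (SE 0.12) and 0.01 (SE 0.14). The summed signal of the 6, in units of the array's 75th percentile, was 47.2 to 57.1 in the vehicle rats and 59.6 to 64.2 in the NTA rats, without overlap. The Kdr probe alone made up 79.9% to 84.0% of that sum. Without it the sum was 7.76 to 9.16 with vehicle and 10.8 to 12.6 with NTA. The median was 0.35 for Kupffer cell and macrophage markers, and 7 of 7 lay above 0. In limma 0 of the 7 passed after adjustment, and 1 was higher at an unadjusted p under 0.05, beside the same 4.5%. It was Marco, named after its values were seen, at 1.27 (SE 0.48). The summed signal of the 7 was 53.4 to 131 with vehicle and 88.0 to 176 with NTA, so the rats overlapped, and Clec4f made up 74.4% to 80.0% of it. For lymphocyte markers the median was 0.29, with 4 of 5 above 0. Their summed signal was 1.44 to 2.11 with vehicle and 1.96 to 2.66 with NTA, so the rats overlapped. Of these 5, 0 passed after adjustment in limma and 2 were higher at an unadjusted p under 0.05, beside the same 4.5%. For biliary markers the median was 0.09, with 4 of 6 above 0. The part of these cells in the Pdlim4 difference was not tested.

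Per array, the share of probes well above background ran from 62.4% to 64.5%, and the 75th percentile of signal from 464 to 558. All NTA arrays shared a slide with no vehicle array, so a slide effect and the treatment cannot be told apart. With slide as a random block the Pdlim4 difference was 2.10, but that fit cannot separate slide from treatment either. No other array shared the slide or the scan day of vehicle replicate 3, and within the other scan day, with 2 vehicle and 3 NTA rats, the Pdlim4 difference was 2.25.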

How the data were processed

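Spot values come from Agilent Feature Extraction: the submitters' processing notes give version 10.7, and the file headers give 10.7.1.1 with array design 035170 and build rn4. The deposited processed signal is a background-subtracted linear intensity, per the file headers. The authors' deposited series table is a ratio: it equalled that signal over the array's 75th percentile, within 0.0001 plus 0.2%, for 100.0% of probes. Its column medians ran from 0.096 to 0.1.

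Levels were log2 of the processed signal minus log2 of the array's 75th percentile. A probe was kept if well above background on all 3 arrays of a group. Spots with a non-uniformity flag, 1 to 14 per array, were set to missing. Accessions were matched to a RefSeq table (GRCr8): 27460 of 61657 probes got a symbol. Because the builds differ, no probe coordinates are given. List genes are read from their brightest probe. Groups were compared in limma 3.58.1 (R 4.3.3; lmFit, eBayes, two-sided, Benjamini-Hochberg over all 38168 probes), tested on simulated data. SE is limma's. With 3 rats against 3 the precision is limited by the number of arrays.

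The members and lists were chosen with earlier results of these data known. Per list, the 3 genes with the smallest p were named where none passed, beside 10 set genes and the 6 genes most like Pdlim4. Since the mean spot signal was not among the columns used here, normexp (offset 50) ran on spot medians. Same-numbered arrays of the 2 groups had correlations of −0.09 to 0.16 between their deviations from the group means, so the numbers were not taken as pairs.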

Additional observations from a re-analysis of the deposited data

How the results depend on the processing

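With normexp background correction the Pdlim4 difference was 1.28 in place of 2.10; this setting also used spot medians and an offset of 50, and the cause was not tested. In the 8 other settings that kept all arrays in the model it lay between 2.09 and 2.25, and with 1 array left out between 1.81 and 2.25. Several of those settings cannot change the difference, as given above. The count of probes called in limma was 13, from 6 to 11 with 1 array left out (6 without NTA replicate 1, 7 without NTA replicate 2), and 0 with the replicate number as a block. That block is balanced and cannot change the Pdlim4 difference of 2.10. The 0 calls in the LIM, partner and actin lists were 0 in all 15 alternatives (14 distinct). Signs were not stable for small differences: Pdlim1 ran from −0.17 to 0.10, the brighter Pdlim5 probe from −0.11 to 0.08 and the brighter Pdlim3 probe from −1.95 to 0.17 with 1 array left out. The dimmer Pdlim2 probe ran from −0.37 to 0.08 in the same fits. All 4 Pdlim7 probes stayed below 0. Pdlim4 rests on 1 probe, and no other probe could be compared.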
